A study of Mus musculus with 8 samples.

Results

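Nr2f1, Nr2f2, Nr2f6 and Nr6a1 are 4 of the 26608 genes listed in a tag-based expression profile of microdissected neural tube tissue from mouse embryos. They are orphan nuclear receptors, transcription factors of the hormone receptor type for which no hormone was known when they were named. The genes were chosen by their read counts in these same 8 libraries, so the differences of the 4 genes between groups describe the data and carry no test. All embryos were of the FVB strain, at day 8.5 of gestation, and all came from diabetic dams. The open neural tube group (4 libraries, numbered 9, 10, 13 and 14) was tissue cut just in front of neural tube closure site 1. The protrusion group (4 libraries, numbered 1 to 4) was abnormal outgrowth cut from the open neural plate, with protrusion 1 labelled separated and protrusions 2, 3 and 4 labelled attached. Both groups share the diabetic mother, and the series asks how protrusion tissue differs from open neural plate of normal shape. The labels state neither how the diabetes was induced nor that each library came from a different embryo, so the spread between libraries may be partly technical.

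Nr2f1 and Nr2f2, also called COUP-TFI and COUP-TFII, bind pairs of the hexamer AGGTCA, mostly as repressors, and can compete with retinoic acid receptors for such sites. Nr2f1 patterns the brain and neural crest, and Nr2f2 is known for its roles in mesenchyme, the heart's atria and venous endothelium. Nr2f6 is a more distant member of the same subfamily and acts as a repressor in immune cells and elsewhere. Nr6a1, or germ cell nuclear factor (GCNF), is alone in its subfamily; it shuts down the pluripotency gene Pou5f1 as embryos pass through gastrulation, and mouse embryos without it die in midgestation with an open neural tube and a posterior axis that fails to extend.

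In this assay a library holds 1 short tag per transcript, next to the CATG site nearest the 3′ end, so a gene's reads do not grow with its length and levels can be set side by side between genes. For each of the 4 receptors the sequence at that site in 1 GENCODE vM21 transcript is given here, because the values rest on reads of this kind. How the authors assigned tags to genes is not stated, so it is an assumption that these tags were the ones counted. Each gene has further coding isoforms with another last tag, which are not printed. CATG is in capitals, each run is 5′ to 3′, and each was found at the last CATG site of no other gene.
Nr2f1: CATGagaaatttaataaaatagatgga
Nr2f2: CATGtgagtgtgtgaagtttctctact
Nr2f6: CATGggatgatgaaaacctggccaata
Nr6a1: CATGtttagcaagtattaggtactgta
The tag lies 450 bases from the end of transcript Nr2f1-201, 142 bases from the end of Nr2f2-201, 43 bases from that of Nr2f6-201 and 56 bases from that of Nr6a1-201. The last CATG of a further isoform, Nr6a1-202, is 4 bases from its end, which leaves no room for a full tag. The deposited counts are per gene, so isoforms cannot be told apart.

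The libraries held 5668054 to 16655583 reads assigned to genes, and 3 reads, used here as the detection floor, were worth 0.180 to 0.529 CPM (reads of a gene scaled to a fixed library total). Low transcripts were detected unevenly. Of the genes averaging 5 to 20 CPM, 4.85% to 18.8% were at 0 in an open neural tube library and 0.0915% to 0.549% in a protrusion library. Of genes at 100 to 1000 CPM, at most 0.0563% were at 0 in any library. Genes with a read numbered 9920 to 11557 in an open library and 14575 to 16330 in a protrusion library. Since this split follows the groups, poorer recovery and fewer transcripts present in the tissue cannot be told apart. Cell type markers differed between libraries of a group. Attached protrusion 3 held 1055 CPM of 8 surface ectoderm markers, against 183 and 175 CPM in attached protrusions 2 and 4. Summed blood markers were 63.3, 1.06, 925 and 1010 CPM in open libraries 9, 10, 13 and 14. Open neural tube 13 and the separated protrusion stood apart from their groups in further lists. In open neural tube 13 the summed level of 10 neural progenitor markers was 201 CPM, against 949 to 1241 CPM in the other 3 open libraries. The same library held 446 CPM of 10 lateral and head mesenchyme markers (at most 10.1 CPM in the other 3), 190 CPM of 10 endothelial markers (at most 56.0 CPM) and 1106 CPM of 10 paraxial mesoderm markers (at most 311 CPM). Its Sox2, the most abundant neural progenitor marker, was 30.9 CPM, against 287 to 550 CPM in the others. The separated protrusion held 1114 CPM of neural progenitor markers and 180 CPM of 10 primitive streak markers, whereas the attached protrusions held 420 to 757 CPM and 969 to 1343 CPM. Of the streak markers, at least 5 and up to 7 of 10 were at 0 in an open library, 1 was at 0 in the separated protrusion and none was at 0 in an attached one. The labels of the separated protrusion and of attached protrusion 2 share most of their sample code, and whether they came from the same embryo is not stated. Comparisons are therefore given for all protrusions and for the attached ones, and values are given for each library.

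**Figure D1:**
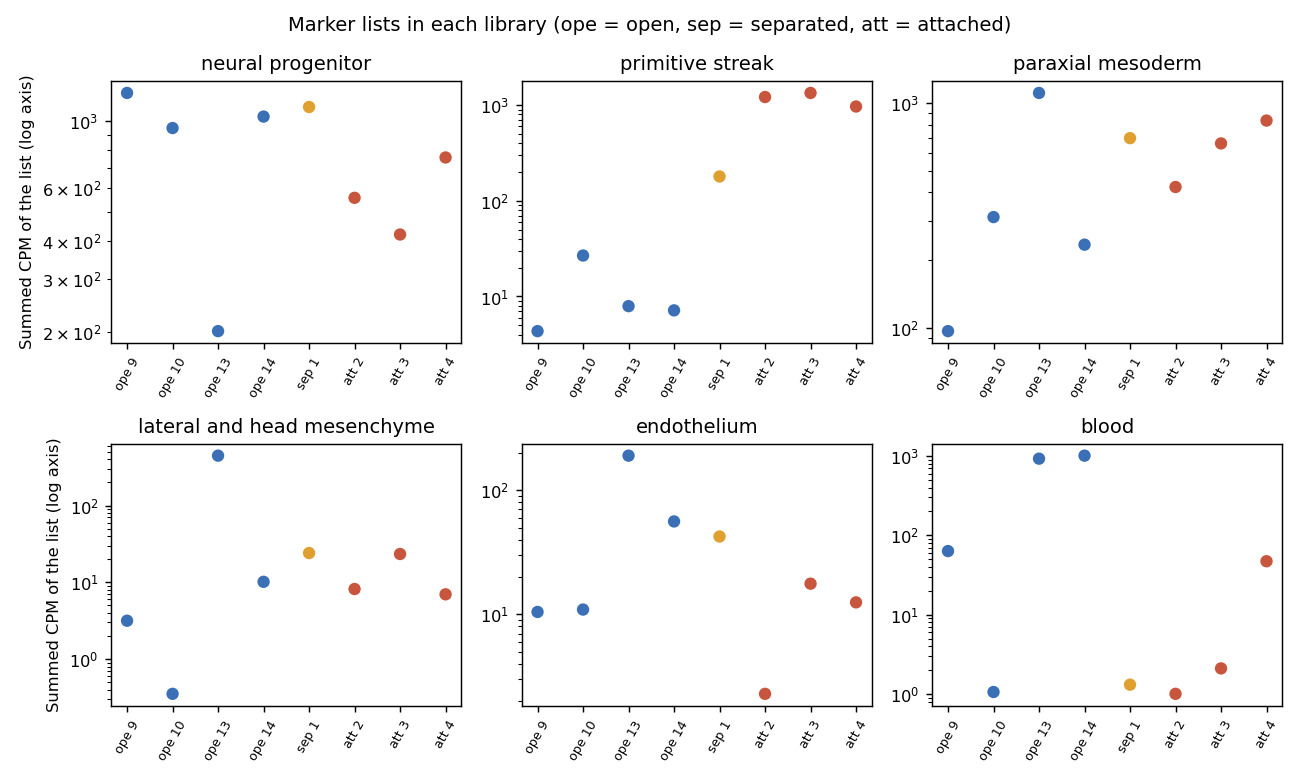
Summed CPM of 6 marker lists in each library, on log axes that differ between panels, with open neural tube, separated and attached protrusion marked by colour. Open neural tube 13 sits apart from the other open libraries in neural progenitor (201 CPM) and mesenchyme (446 CPM) markers, and the separated protrusion held 180 CPM of primitive streak markers, between the open and the attached libraries.

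Nr6a1 was the most abundant of the 4 transcripts in every library except open neural tube 13, and it was higher in the protrusions. Its level was 600 CPM in open neural tube 9, 635 CPM in 10, 191 CPM in 13 and 520 CPM in 14. It was 1053 CPM in the separated protrusion and 1207, 1571 and 1090 CPM in attached protrusions 2, 3 and 4. The 2 groups did not overlap, and the separated protrusion stood with the attached ones. The mean was 486 ± 203 CPM in open neural tube (SD, n = 4) and 1230 ± 237 CPM in the protrusions (SD, n = 4), 2.53-fold higher, and the fitted log2 fold change was 1.25 ± 0.32 (SE). Such a separation was common: 8.84% of the 11036 genes tested were higher in every protrusion than in every open library, and 17.9% of 11466 were so against the attached protrusions alone. Of the genes tested, 86.9% had a lower log2 fold change than Nr6a1. In rank, Nr6a1 was between the 71st and the 111th most abundant gene of each protrusion library, and between the 237th and the 308th of open libraries 9, 10 and 14; in open library 13 it was the 1004th. In bulk tissue, fewer cells of a type and less RNA per cell cannot be told apart, for this gene and for those that follow.

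Nr2f1 was abundant in all open libraries and close to the detection floor in the attached protrusions. It measured 136 CPM (1375 reads) in open neural tube 9, 47.5 CPM (269 reads) in 10, 348 CPM (5794 reads) in 13 and 107 CPM (894 reads) in 14. In attached protrusions 2, 3 and 4 it measured 1.58 CPM (11 reads), 0.787 CPM (9 reads) and 1.68 CPM (14 reads). In these 3 libraries at most 0.427% of the genes averaging 5 to 20 CPM were at 0. The separated protrusion did not follow the attached ones: at 50.7 CPM (310 reads) it lay just above open neural tube 10. The group means were 159 ± 131 CPM in open neural tube (SD, n = 4) and 1.35 ± 0.489 CPM in the attached protrusions (SD, n = 3), a 118-fold difference, with a fitted log2 fold change of −7.01 ± 0.85 (SE). Without overlap, 6.94% of the 11466 genes tested were lower in the attached protrusions, and 0.0698% had a lower log2 fold change than Nr2f1. Over all 4 protrusions the groups overlapped, the log2 fold change was −3.65 ± 1.28 (SE), and the separated protrusion's level was 37.6 times the attached mean. The exact Poisson 95% intervals, which cover counting error only, ran from 0.360 to 1.49 CPM in attached protrusion 3 and from 45.2 to 56.7 CPM in the separated one. An antisense gene that overlaps Nr2f1, A830082K12Rik, had 0 to 33 reads in the open libraries and 3 to 10 in the attached protrusions. The sources do not state whether strand was used in counting, so the few reads of Nr2f1 in the attached protrusions cannot be told apart from those of its antisense partner.

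Nr2f2 showed the same split of libraries as Nr2f1. It measured 57.0 CPM in open neural tube 9, 19.6 CPM in 10, 366 CPM in 13 and 89.4 CPM in 14. It measured 55.5 CPM in the separated protrusion and 2.72, 1.66 and 10.3 CPM in attached protrusions 2, 3 and 4. Every attached protrusion lay below every open library, and the separated protrusion lay inside the open range. The means were 133 ± 158 CPM in open neural tube (SD, n = 4) and 4.91 ± 4.73 CPM in the attached protrusions (SD, n = 3), 27.1-fold apart, with a log2 fold change of −4.86 ± 1.17 (SE); over all 4 protrusions it was −3.02 ± 1.18 (SE). Without open library 13 the fold changes were −3.57 and −1.69. Open library 13 alone held 6092 of the Nr2f2 reads, against 111 to 749 in the other open libraries. The interval of attached protrusion 4, 8.27 to 12.8 CPM, did not meet those of attached protrusions 2 (1.64 to 4.25 CPM) and 3 (upper bound 2.60 CPM), while those of 2 and 3 overlapped. Open library 13, with the highest level of both Nr2f1 and Nr2f2, was also the one with the mesenchyme and endothelial markers given above; their part in the open neural tube means was not tested.

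Nr2f6 was lower in the protrusions on average, by far less than Nr2f1 and Nr2f2. It measured 360 CPM in open neural tube 9, 345 CPM in 10, 189 CPM in 13 and 341 CPM in 14, against 197 CPM in the separated protrusion and 145, 194 and 123 CPM in attached protrusions 2, 3 and 4. Open neural tube 13 lay below the separated protrusion and attached protrusion 3, so the groups overlapped through that library. The mean was 309 ± 80.4 CPM in open neural tube (SD, n = 4) and 165 ± 36.8 CPM in the protrusions (SD, n = 4), and the log2 fold change was −1.0 ± 0.24 (SE). Among the genes tested, 7.90% had a lower log2 fold change. Here the separated protrusion was 1.28 times the attached mean, unlike its levels of Nr2f1 and Nr2f2.

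**Figure D2:**
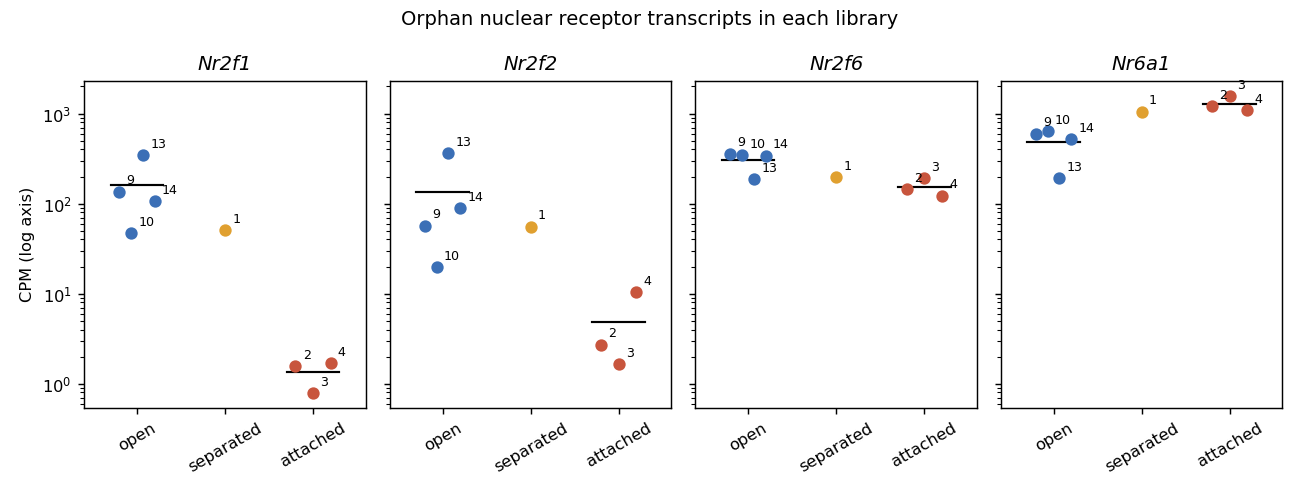
CPM of Nr2f1, Nr2f2, Nr2f6 and Nr6a1 in each of the 8 libraries, on log axes, 1 panel per gene, with library numbers beside the points and lines at the means of the open and attached libraries. Nr6a1 lay between 1053 and 1571 CPM in the protrusions and between 191 and 635 CPM in open neural tube, while Nr2f1 and Nr2f2 of the separated protrusion (50.7 and 55.5 CPM) lay among the open libraries.

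Under edgeR's quasi-likelihood test with Benjamini-Hochberg adjustment, 0.607% of the 11036 genes tested passed an adjusted p of 0.05 for all protrusions, and 1.50% of 11466 for the attached ones. Of the 4 receptors, 0 passed in the first comparison and 1, Nr2f1, in the second. At an unadjusted p under 0.05 all 4 counted in each comparison, as did 15.3% of all genes tested over all protrusions and 17.7% over the attached ones. DESeq2 called 2 of the receptors (Nr2f6 and Nr6a1) over all protrusions and all 4 over the attached ones, beside 7.39% and 9.99% of the genes it gave an adjusted p. With limma-voom, 1 receptor (Nr6a1) was called in each comparison, beside 3.35% and 7.58% of all genes. These counts are read as no evidence, since the same differences led to the choice of the genes. Within the attached comparison the call of Nr2f1 was lost with limma-voom, without open library 9 and without protrusion 2, 3 or 4.

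With Nr6a1 higher and the 3 Nr2f genes lower in the protrusions, the make-up of the receptors' reads within a library differed between the tissues. The shares of Nr6a1, Nr2f1 and Nr2f6 did not overlap between the groups, while that of Nr2f2 did. How often shares within other sets of genes separate in this way was not examined. Of the reads of the 4 genes together, Nr6a1 took 52.1% in open neural tube 9, 60.6% in 10, 17.5% in 13 and 49.2% in 14. It took 77.6% in the separated protrusion and 89.0%, 88.9% and 89.0% in the attached ones. The attached protrusions were nearly identical in this share, and the separated protrusion lay between them and the open libraries. Nr2f6 took 10.7% and 11.0% in attached protrusions 2 and 3 and slightly less in 4, which left Nr2f1 with at most 0.137% and Nr2f2 with at most 0.844%. The ratio of Nr6a1 to Nr2f6, a ratio within a library that does not depend on scaling, was 1.01 to 1.84 in open neural tube, 5.33 in the separated protrusion and 8.11 to 8.89 in the attached ones. The balance between the paralogs differed as well. There were 2.38 and 2.42 reads of Nr2f1 per read of Nr2f2 in open libraries 9 and 10, 0.951 and 1.19 in 13 and 14, 0.914 in the separated protrusion, and 0.579, 0.474 and 0.163 in attached protrusions 2, 3 and 4. The summed level of the 4 genes varied less, from 1048 to 1152 CPM in open neural tube and from 1225 to 1767 CPM in the protrusions.

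**Figure D3:**
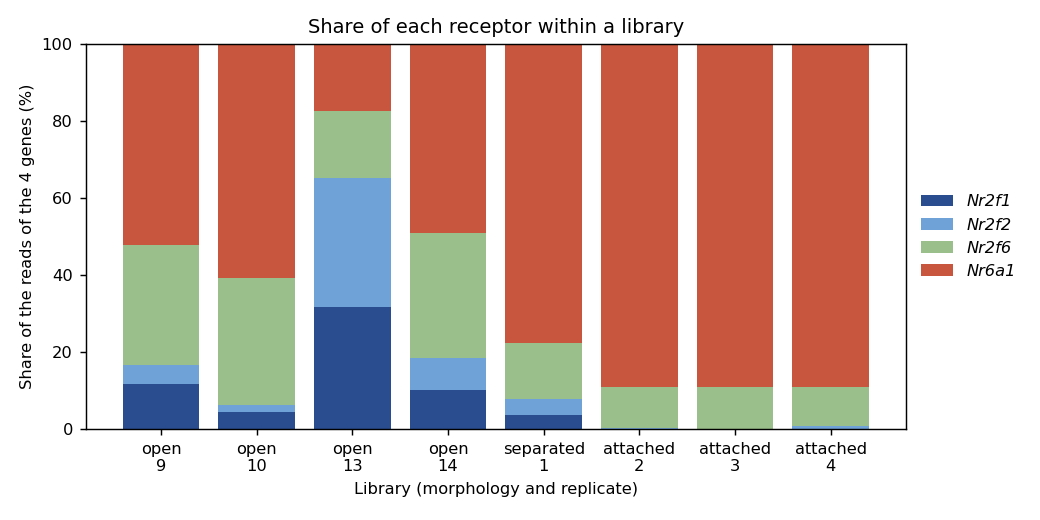
Share of the summed reads of the 4 receptors taken by each of them, in percent, 1 bar per library. Nr6a1 took 88.9% to 89.0% in the attached protrusions, 77.6% in the separated one and 17.5% to 60.6% in the open neural tube.

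Among all 49 nuclear receptor genes looked up in the tables, Nr6a1 had the highest mean level in each tissue and Nr2f6 the next. In open neural tube the order went on with Nr2f1, Nr2f2, Rxrb at 122 ± 45.0 CPM, Rarb at 115 ± 45.6 CPM and Rxra at 103 ± 45.6 CPM (SD, n = 4). Nr2f1 to Rxra in this order do not differ beyond their spread. In the attached protrusions Nr6a1 at 1289 ± 251 CPM and Nr2f6 at 154 ± 36.3 CPM were followed by Rxrb at 141 ± 12.7 CPM, Rxra at 72.4 ± 11.2 CPM, Nr2c2 at 65.6 ± 26.7 CPM, Nr1h5 at 57.6 ± 24.5 CPM and Rarg at 44.6 ± 3.27 CPM (SD, n = 3), while Nr2f2 and Nr2f1 stood at 4.91 and 1.35 CPM. Nr2f6 and Rxrb, neighbours in that order, do not differ beyond their spread, nor do Rxra, Nr2c2 and Nr1h5. At least 3 reads were found for 16 to 19 of the 49 genes in an open library and for 26 to 34 in a protrusion, and 11 stayed under 3 reads in all 8 libraries. This count goes with the uneven detection of low transcripts given above, and the part of recovery in it was not tested.

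Of the 45 other receptors, 18 could be tested over all protrusions and 0 passed edgeR's threshold; 13 had a log2 fold change above 0, and the median was 0.28 against 0.08 for all genes tested. At an unadjusted p under 0.05 there were 3 of 18, near the 15.3% of all genes. DESeq2 and limma-voom each called 3, Thra among them, beside 7.39% and 3.35% of all genes. Thra and Rxrg, both among the 3 smallest p by edgeR, entered the tests only through the protrusions, so these counts are no list result. Rxrg averaged 0.0494 CPM in open neural tube and 7.77 CPM in the attached protrusions, and was 3.93 CPM in the separated one. For the lists that follow, the shares of all genes called by DESeq2 and limma-voom over all protrusions were the same. Against the attached ones those shares were 9.99% and 7.58%. Against the attached protrusions 2 of 19 passed, both retinoic acid receptors, with log2 fold changes of opposite sign (median 0.42, against 0.09 for all genes). Rarb, a receptor that is itself induced by retinoic acid, fell: it measured 55.5 to 166 CPM in the open libraries, 36.5 CPM in the separated protrusion and 2.01, 9.45 and 11.3 CPM in the attached ones (log2 fold change −4.01 ± 0.62, SE; adjusted p = 0.0251 by edgeR). The call was lost in 7 of 12 alternatives, with limma-voom, without open library 9, 10 or 14 and without protrusion 2, 3 or 4 (adjusted p up to 0.0907). Rarg, the receptor typical of the primitive streak and tail end, was higher: it was 43.7, 48.2 and 41.8 CPM in the attached protrusions, 0.164 CPM in the separated one, 0.120 CPM in open library 13 and at 0 in the other open libraries (adjusted p = 0.0041 by edgeR). It passed the filter on low counts only through the attached protrusions, where it is high, so that it had to differ, and its p is no support. The separated protrusion thus lay with the open libraries in Rarg, as it did in Nr2f1 and Nr2f2. For Rarg the open libraries at 0 are also those with the most low transcripts at 0, and the part of this in its difference was not tested. Thra, the thyroid hormone receptor alpha gene, stayed under the floor in the open libraries. It measured 2.13 CPM in the separated protrusion and 1.57 to 3.30 CPM in the attached ones (adjusted p = 0.0805 by edgeR over all protrusions). Thra, too, entered the tests only through the protrusions, where it is higher, so its p is no support. The part of the uneven detection of low transcripts in its difference was not tested.

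**Figure D4:**
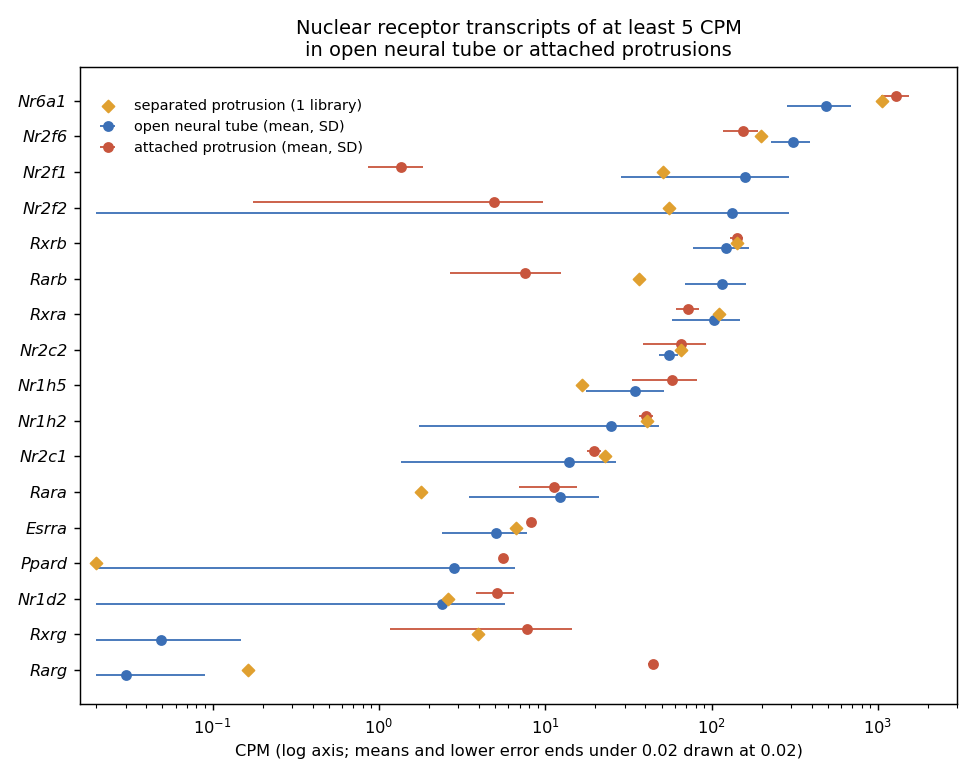
Mean CPM of the nuclear receptors that reached at least 5 CPM in open neural tube or in the attached protrusions, on a log axis, with SD bars and the separated protrusion as a single point. Nr6a1 and Nr2f6 lead in each tissue, and Nr2f1, Nr2f2 and Rarb lie far lower in the attached protrusions than in open neural tube.

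The receptors repress through shared corepressor complexes, whose genes gave no call by edgeR in either comparison. Of 22 corepressors and partners, such as histone deacetylases and DNA methyltransferases, 18 could be tested and 0 passed edgeR's threshold over all protrusions or over the attached ones. Of the 18, 12 had a log2 fold change above 0 over all protrusions, with a median of 0.42; at an unadjusted p under 0.05 there were 3 (15.3% of all genes), DESeq2 called 1 and limma-voom 0. Against the attached protrusions those counts were 5 (17.7% of all genes), 3 and 2. In 8 of the 18 the attached and open groups did not overlap, beside 17.9% of all genes that were higher and 6.94% that were lower. Dnmt3b, the DNA methyltransferase that Nr6a1 recruits to Pou5f1, measured 10.9 to 39.5 CPM in open neural tube, 51.0 CPM in the separated protrusion and 52.4 to 148 CPM in the attached ones (log2 fold change 1.71 ± 0.50, SE; adjusted p = 0.118 by edgeR). Hdac2, a histone deacetylase, measured 1338 to 1582 CPM in open neural tube, 1278 CPM in the separated protrusion and 778 to 1118 CPM in the attached ones (−0.57 ± 0.20, SE; adjusted p = 0.189).

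Of 11 genes known as targets of Nr6a1, 5 could be tested, and these 5 had a log2 fold change above 0 over all protrusions (median 1.54, against 0.08 for all genes); against the attached ones 4 of 5 did (median 1.19). None passed edgeR's threshold over all protrusions. At an unadjusted p under 0.05 there were 3 (15.3% of all genes), DESeq2 called 2 and limma-voom 0. Of these 5 genes, Fgf4 and Pou5f1 would not have passed the filter on low counts through the open libraries alone. A higher level in the protrusions thus favoured their entry, and the counts and medians are no list result. Pou5f1, the pluripotency factor OCT4 and the gene best known to be silenced by Nr6a1, was detected beside high Nr6a1. It measured 5.73, 0, 0.180 and 17.9 CPM in open libraries 9, 10, 13 and 14, 14.2 CPM in the separated protrusion, and 31.3, 437 and 16.5 CPM in attached protrusions 2, 3 and 4. Attached protrusion 3 had the highest level of both Nr6a1 and Pou5f1 among the 8 libraries, and attached protrusion 4 lay below open library 14 in Pou5f1. The log2 fold change of Pou5f1 was 4.18 ± 1.57 (SE; adjusted p = 0.225 by edgeR); it was singled out after its values were seen. Fgf4, a growth factor of the primitive streak, was at 0 in 3 of 4 open libraries and at 0.529 CPM in open library 10, and measured 2.29 CPM in the separated protrusion and 16.2, 89.1 and 22.8 CPM in the attached ones. Fgf4 entered the tests only through the protrusions, where it is high, so its p is no support. It passed edgeR's threshold in the attached comparison (adjusted p = 0.0309) and missed the threshold over all protrusions (adjusted p = 0.0507). The attached call was lost without open library 9 or 14 and without protrusion 2, 3 or 4 (adjusted p up to 0.202). Gpd2, a mitochondrial glycerol phosphate dehydrogenase, measured 61.7 to 73.3 CPM in open neural tube and 91.5 to 122 CPM in the protrusions (log2 fold change 0.62 ± 0.19, SE; adjusted p = 0.146). Nanog was at 0 in all 8 libraries.

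The Pou5f1 promoter carries the hexamer of which Nr6a1 binds repeats, so it is printed beside those values. It is chr17:35505782-35506081 on the plus strand of GRCm38.p6, from RefSeq, 250 bases before to 50 after the start, with AGGTCA in capitals.
Pou5f1: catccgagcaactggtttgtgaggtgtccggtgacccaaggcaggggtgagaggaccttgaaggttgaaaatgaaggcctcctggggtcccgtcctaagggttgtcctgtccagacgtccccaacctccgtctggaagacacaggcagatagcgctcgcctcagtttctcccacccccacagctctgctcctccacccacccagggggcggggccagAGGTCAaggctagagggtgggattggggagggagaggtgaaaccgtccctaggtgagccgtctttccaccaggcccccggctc
The hexamer occurs 1 time in it, 33 bases before the start. Neither an exact direct repeat of AGGTCA without a spacer nor the longer site TCAAGGTCA occurs in it. Searched on both strands, AGGTCA was present in 16.3% of 32851 promoters of this length, so a match is common and is a description only. The promoters of Nr2f1 (chr13:78198824-78199123, minus strand) and Nr2f2 (chr7:70366697-70366996, minus strand), the members that varied together, are given for comparison from the same build.
Nr2f1: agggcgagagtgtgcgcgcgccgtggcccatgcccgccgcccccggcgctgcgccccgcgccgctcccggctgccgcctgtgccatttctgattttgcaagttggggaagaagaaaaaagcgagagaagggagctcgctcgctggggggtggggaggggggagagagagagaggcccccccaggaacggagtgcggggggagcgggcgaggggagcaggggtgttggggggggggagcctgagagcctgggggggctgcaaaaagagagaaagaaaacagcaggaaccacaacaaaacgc
Nr2f2: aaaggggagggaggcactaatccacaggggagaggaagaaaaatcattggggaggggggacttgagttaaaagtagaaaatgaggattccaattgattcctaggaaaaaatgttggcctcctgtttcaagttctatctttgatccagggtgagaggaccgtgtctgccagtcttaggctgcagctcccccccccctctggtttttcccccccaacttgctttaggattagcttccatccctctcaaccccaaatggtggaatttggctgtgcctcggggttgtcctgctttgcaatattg
Neither holds AGGTCA in this window. These windows hold 23 CpG for Nr2f1 and 2 for Nr2f2, against 53 for Nr2f6 and a median of 7 over all promoters of the table. The table lists a further start for Nr2f1, whose window holds 4 CpG, and for Pou5f1, whose window lacks AGGTCA. For Nr6a1 itself, the window chr2:38784466-38784765 holds AGGTCA 2 times and the window chr2:38926412-38926711 lacks it.

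Nr6a1 is also known to act with Lin28 and Gdf11 in the passage from trunk to tail. Of those 4 genes 3 could be tested over all protrusions and 0 passed edgeR's threshold (median −0.37, none at an unadjusted p under 0.05, and none by DESeq2 or limma-voom). Against the attached protrusions all 4 could be tested, Gdf11 only there, and again 0 passed by any of the 3 tools (median −0.20, none at an unadjusted p under 0.05). In 1 of the 4 the groups did not overlap, beside 17.9% of all genes that were higher and 6.94% that were lower. Lin28b, an RNA-binding protein that blocks let-7 maturation, measured 297 to 394 CPM in open neural tube and 198 to 353 CPM in the protrusions (log2 fold change −0.37 ± 0.23, SE; adjusted p = 0.511). Acvr2b, a receptor for Gdf11, ranged from 0.0987 to 34.4 CPM within the open libraries and was 0.654 to 6.60 CPM in the protrusions (−1.98 ± 1.23, SE; adjusted p = 0.507). Over all protrusions the groups overlapped in both Lin28b and Acvr2b.

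Of 13 genes known as targets of Nr2f1 or Nr2f2, 7 could be tested and 0 passed edgeR's threshold over all protrusions (3 above 0, median −0.21; 2 at an unadjusted p under 0.05, beside 15.3% of all genes; DESeq2 1, limma-voom 0). Against the attached protrusions the count was again 0 (median −0.65; 4 at an unadjusted p under 0.05, beside 17.7% of all genes; DESeq2 3, limma-voom 0). Nrp1, a receptor for semaphorins and VEGF that Nr2f2 activates in venous endothelium, measured 38.2, 6.88, 247 and 43.2 CPM in open libraries 9, 10, 13 and 14, 27 CPM in the separated protrusion and 3.01 to 6.73 CPM in the attached ones (log2 fold change over all protrusions −3.09 ± 1.04, SE; adjusted p = 0.177). As for Nr2f2, the highest level was in open library 13 and the lowest open level in library 10. Notch1, which Nr2f2 represses in veins, measured 50.8 to 124 CPM in open neural tube, 138 CPM in the separated protrusion and 109 to 230 CPM in the attached ones (1.0 ± 0.33, SE; adjusted p = 0.171).

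Retinoic acid supply and clearance, the pathway with which the COUP-TFs share binding sites, was represented by 13 genes. Over all protrusions 8 could be tested and 0 passed edgeR's threshold (5 above 0, median 0.96; 4 at an unadjusted p under 0.05, beside 15.3% of all genes; DESeq2 1, limma-voom 0). Against the attached protrusions it was again 0 of 8 (median 1.03; 3 at an unadjusted p under 0.05, beside 17.7% of all genes; DESeq2 1, limma-voom 0). The summed level of the list went the other way from its median, at 6423 to 17036 CPM in open libraries 9, 10 and 14, 1660 CPM in 13, 5923 CPM in the separated protrusion and 1154 to 1715 CPM in the attached ones. Crabp1, a cytosolic retinoic acid-binding protein, made up most of that sum: it measured 9480, 6114, 1130 and 16888 CPM in open libraries 9, 10, 13 and 14, 5244 CPM in the separated protrusion and 602, 555 and 779 CPM in the attached ones (attached log2 fold change −3.79 ± 0.77, SE; adjusted p = 0.0528 by edgeR). Every attached protrusion lay below every open library in Crabp1, and the separated protrusion lay inside the open range, as in Nr2f1 and Nr2f2. Cyp26a1, the enzyme that degrades retinoic acid at the tail end of the embryo, was at 0 in open libraries 9 and 14 and at 7.06 and 18.0 CPM in 10 and 13. It measured 52.7 CPM in the separated protrusion and 139, 33.1 and 316 CPM in the attached ones (log2 fold change 4.34 ± 1.42, SE; adjusted p = 0.165 by edgeR). The open libraries alone would not have brought Cyp26a1 past the filter on low counts, which favours a positive fold change.

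The genes whose levels followed a member most closely across the 8 libraries were found by the root mean square (RMS) difference of centred log2 CPM over the 6198 genes whose log2 CPM averaged 4 or more. They are a description of the same libraries. For Nr2f1 these were Sox7, a Sox factor of endothelium (RMS difference 0.81), Nr2f2 (1.14) and Hapln1, which links hyaluronan to proteoglycans (1.24), where Nr2f1 itself varied by 3.13 around its mean. Sox7 measured 19.8 to 142 CPM in open neural tube, with the highest level in library 13, 33.4 CPM in the separated protrusion and 0.120 to 0.525 CPM in the attached ones. For Nr2f2 they were Hapln1 (0.86), Nrp1 (0.93) and A930038C07Rik (1.11). Nrp1 and Sox7 are both genes of endothelium. The endothelial markers summed to 10.5, 10.9, 190 and 56.0 CPM in open libraries 9, 10, 13 and 14. Their sum was 42.4 CPM in the separated protrusion and 2.29, 17.7 and 12.5 CPM in attached protrusions 2, 3 and 4. Open libraries 9 and 10 lay below attached protrusions 3 and 4 in this sum and above them in Nr2f1 and Nr2f2. The part of endothelial cells in these patterns was not tested. Tek, the most abundant of these markers, measured 106 CPM in open library 13. Of the 10 markers, 2 were at 0 in open library 13, Kdr and Flt1, which were at 0 in all 4 open libraries, and the rest had reads there. From 2 to 7 of the markers were at 0 in an open library, 2 in the separated protrusion and 1 to 6 in an attached one. For Nr2f6 the nearest were the cytolinker gene Plec (0.18), the kinase gene Tbk1 (0.20) and 1810029B16Rik (0.21), and for Nr6a1 they were Wbp2 (0.24), LOC100503370 (0.25) and Fam131b (0.28). Wbp2, a coactivator of nuclear receptors, measured 11.7 to 31.6 CPM in open neural tube, lowest in library 13, and 60.5 to 73.5 CPM in the protrusions.

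Across the alternative settings the fitted log2 fold changes kept their sign for all 4 receptors. Over all protrusions Nr6a1 ranged from 1.02 to 1.44, Nr2f6 from −1.28 to −0.85 and Nr2f2 from −4.86 to −1.69 in 14 alternatives. For Nr2f2 the lowest value came without the separated protrusion and the highest without open library 13, and for Nr2f1 the value changed from −3.65 to −7.01 without the separated protrusion and to −2.87 without open library 13. With open library 13 and the separated protrusion both left out, an alternative chosen after the data were seen, edgeR called 211 genes and, among the receptors, Nr2f1, Nr2f6 and Nr6a1.

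**Figure D5:**
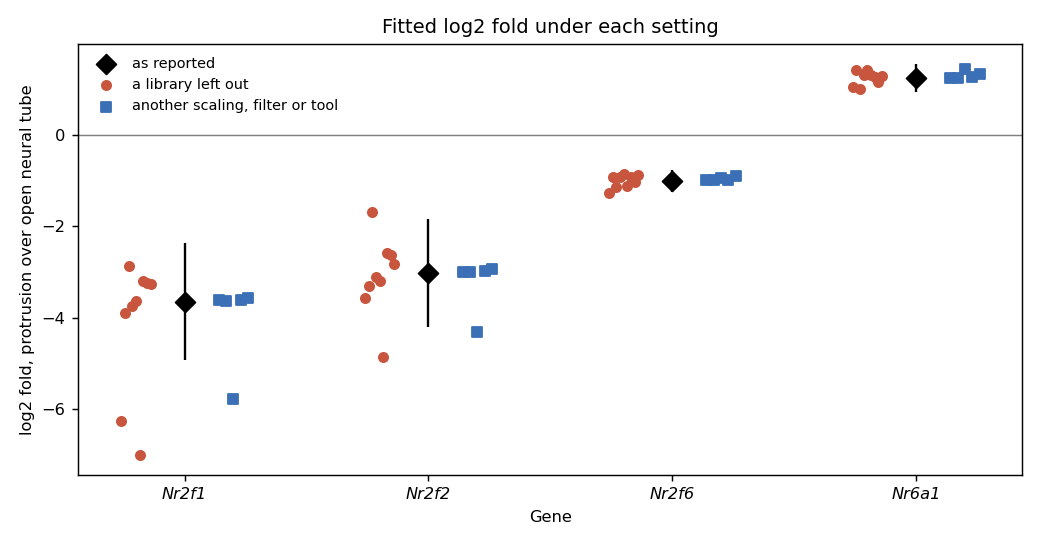
Fitted log2 fold change of each receptor, protrusion minus open neural tube, for all protrusions: black diamonds with SE bars are the reported fit, red points leave out a library (or the 2 that stand apart), and blue squares use another scaling, filter or tool. Nr6a1 stays between 1.02 and 1.44 and Nr2f6 between −1.28 and −0.85, while Nr2f1 moves from −3.65 to −7.01 when the separated protrusion is left out.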

How the data were processed

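Libraries were made by the authors with the SOLiD SAGE kit from 7 to 12 ng of total RNA, per the labels' protocols, and read against mm9, per the submitters' processing notes; no aligner or counter is named in the sources. The deposited files hold raw read counts per gene symbol for 8 libraries, with 26608 genes each, of which 8487 were at 0 throughout. CPM is a count divided by its library's total (5668054 to 16655583 reads).

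Protrusions were compared with open neural tube in R 4.3.3 by edgeR 4.0.16 (TMM scaling, filterByExpr with a minimum count of 10, robust quasi-likelihood test, Benjamini-Hochberg threshold 0.05), for all 4 protrusions and for the 3 attached ones, which share the 4 open libraries. DESeq2 1.42.0, limma-voom (limma 3.58.1), other scaling, no filter and leaving out each library were alternatives. The steps were tested on simulated data. Tags came from GENCODE vM21 transcripts, promoters from RefSeq (GRCm38.p6), for sequence only.

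The members and lists were chosen with earlier results of these data known. Named besides the members are list genes past the threshold (at most 4, otherwise the 2 with the smallest p), the most abundant marker of a list, and 3 genes per member with the closest pattern. A gene that this rule names is not reported here.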

Additional observations from a re-analysis of the deposited data

Results flagged for a closer look

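In 3 of the 8 groups examined (4 genes in open neural tube and in protrusions), 1 library stood far from the other 3 of its group in CPM. The measure was the gap to its nearest neighbour as a share of the group's range (Dixon's 95% criterion). That criterion assumes normally spread values and was applied to CPM, not to log values. In log2 CPM, Nr2f2 of protrusions 1 to 4 was 5.79, 1.58, 0.755 and 3.39, which is more evenly spaced. The genes were chosen by these values, so the criterion's chance rate of about 1 in 20 groups does not apply. The flags are a description only. Nr2f1 of the separated protrusion was 50.7 CPM, above the attached ones (0.982 of the range). Nr2f2 of the same library was 55.5 CPM (0.839). Nr2f6 of open neural tube 13 was 189 CPM, below the other open libraries (0.890). The same 2 libraries stood apart in cell type markers: open library 13 held 201 CPM of neural progenitor and 446 CPM of mesenchyme markers, and the separated protrusion held 180 CPM of primitive streak markers; the part of these in the 3 values was not tested.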

How the results depend on the processing

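No receptor changed the sign of its fold change in the alternatives run. Over all protrusions, edgeR called 67 genes, DESeq2 795 and limma-voom 370, and edgeR called 211 with open library 13 and the separated protrusion left out (chosen after seeing the data) and 1 to 172 when single libraries were left out. In the receptor and pathway lists (18, 18, 5, 3, 7 and 8 genes tested) the 0 calls became 8 with DESeq2 and 3 with limma-voom. Beside these stood 7.39% and 3.35% of all genes, and 0.607% with edgeR. The list calls were 1 with RLE scaling, 2 with no low-count filter and 1 with no scaling factor, beside 89, 82 and 97 genes in all. They were 4 with those 2 libraries left out and 0 to 3 without single libraries. DESeq2's 8 include Thra and Fgf4, which entered the tests only through the protrusions, so these counts are no list result. The log2 fold change of Nr2f1 over all protrusions, −3.65, was −5.79 with limma-voom, −6.26 with both libraries left out and −7.01 to −2.87 without single libraries. Against the attached protrusions, edgeR called 172 genes, DESeq2 1111, limma-voom 869, and 10 to 211 were called without single libraries. The cause of these shifts was not tested. With 3 or 4 libraries a group, low transcripts were detected unevenly, and Nr2f1 in the attached protrusions rests on 9 to 14 reads a library. No paired analysis was possible because the groups share no replicate numbers.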
